A study of Mus musculus with 4 samples.

Results

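The canonical core histone genes (H2A, H2B, H3 and H4) and the linker histone genes (H1) were followed in RNA-Seq of cerebral endothelial cells. Members were the rows of the deposited table whose symbol begins with H1f, H2ac, H2bc, H3c or H4c and ends in a number. Of 24873 genes listed, 46 matched: 8 H1, 5 H2A, 13 H2B, 9 H3 and 11 H4 genes. The mouse annotation (GENCODE M39, GRCm39) held 73 genes with such symbols, and the other 27 had no row under their symbol in the deposited table. Counts and class sums given here cover the listed members only. Of the 46, 36 lie on chromosome 13, 4 on chromosome 3, 3 on chromosome 6, 2 on chromosome 11 and 1 on chromosome 15, and 38 have a single exon.

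The series compared 2 control libraries with 2 tamoxifen libraries, each from 3 pooled mice of mixed sex on the C57BL/6J background. All mice carried the tamoxifen-dependent VE-cadherin cre/ERT2 driver (Cdh5cre in the labels) and homozygous floxed Mgp, so that the controls had the same alleles and differed in receiving no tamoxifen. Mice aged 10 weeks received tamoxifen on 5 consecutive days, at 75 mg/kg each day, to delete Mgp, an inhibitor of bone morphogenetic proteins, in cells that express VE-cadherin. Cells were isolated on day 9. The labels call them Brain tdTomato+, whereas the methods describe a sort for CD31+CD45- cells. Columns headed C were read as control and columns headed A as tamoxifen, although the labels give no letter A. The labels do not say whether mice were shared between libraries of a group, whereas a legend of the study calls each heatmap row an independent group. The p-values measure the spread between these 4 libraries, which may be technical if mice were shared.

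Core histones H2A, H2B, H3 and H4 form the protein spool around which DNA is wrapped, and H1 binds the linker DNA where it enters and leaves. Canonical genes are transcribed mainly in S phase, when newly copied DNA needs histones, and their mRNAs end in a conserved stem-loop in place of a poly(A) tail. Replacement variants, and a few genes of the canonical families, are expressed outside S phase and make polyadenylated mRNA. The libraries were made with a kit that captures mRNA by its poly(A) tail, a tail that stem-loop transcripts lack. How the capture affected the levels given here was not tested.

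The stem-loop was searched for as a pattern of 16 bases in the 300 bases after each stop codon. It was present in 42 of the 46 listed members (91.3%) and in 10 of 21684 other protein-coding genes (0.0461%), among them H2ax and H3f4. H1f0, H1f8, H1f10 and H2bc21 had none. The loops are shown because their letters set H4 genes apart from the other classes. The 42 loops had 8 different sequences. The 11 H4 members used 4 of them and the 31 members of the other classes used the other 4, with none shared. The commonest sequence, in 23 H1, H2A, H2B and H3 genes, is that of H1f1, and the commonest H4 sequence, in 7 genes, is that of H4c4. The loop began between 21 and 54 bases after the stop codon (median 30). The following 30-base stretches of GRCm39 have the loop in capitals and 7 flanking bases on each side, and each lies in the 3-prime untranslated region of its gene or just past the annotated end.
H1f1, chr13:23948368-23948397, plus strand: acccaacGGCTCTTTTCAGAGCCaccaaca
H1f2, chr13:23923488-23923517, plus strand: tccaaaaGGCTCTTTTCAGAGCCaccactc
H2ac25, chr11:58845991-58846020, plus strand: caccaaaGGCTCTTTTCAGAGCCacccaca
H2bc27, chr11:58840168-58840197, plus strand: acccaaaGGCTCTTTTCAGAGCCaccttcc
H2bc12, chr13:22220463-22220492, plus strand: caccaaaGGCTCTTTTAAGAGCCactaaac
H3c15, chr3:96145794-96145823, minus strand: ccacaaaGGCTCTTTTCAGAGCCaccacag
H3c8, chr13:23720052-23720081, plus strand: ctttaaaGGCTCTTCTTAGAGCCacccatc
H4c4, chr13:23765926-23765955, plus strand: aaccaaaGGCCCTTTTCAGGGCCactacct
H4c8, chr13:23715621-23715650, plus strand: aaccaaaGGCCCTTTTCAGGGCCgcccaca
H4c9, chr13:22225129-22225158, minus strand: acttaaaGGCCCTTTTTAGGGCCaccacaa
H4c11, chr13:21919600-21919629, plus strand: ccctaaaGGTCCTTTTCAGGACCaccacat

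Promoters were taken as the 250 bases before the annotated start, and both strands were searched for the TATA box letters TATAAA, for the CCAAT box, which binds the factor NF-Y, for the octamer ATTTGCAT of H2B genes and for the AC box AAACACA of H1 genes. The TATA box letters occurred in 23 of the 46 members (50%) and in 11.9% of the promoters of all protein-coding genes. These counts take either strand and any place in the window, so they include letters that belong to a neighbouring gene. TTTATA near the upstream end of the H2bc12 and H2bc21 windows is the TATAAA before the starts of H2ac12 and H2ac20 on the other strand. The H2bc6 window lies inside the annotated H1f4 gene, and the annotated start of H1f3 lies well before its coding sequence. The CCAAT box occurred in 12 of 13 H2B, 5 of 5 H2A, 7 of 9 H3, 5 of 8 H1 and 4 of 11 H4 members, beside 36.5% of all promoters. The octamer occurred in 5 of 13 H2B and 4 of 5 H2A members and in no H1, H3 or H4 member, beside 1.49% of all. The windows of H2ac8 and H2bc8 overlap, as do those of H2ac20 and H2bc21. In each pair the same octamer was counted for both genes. The AC box occurred in 4 of 8 H1 members, beside 5.87% of all. The promoters of 2 H1 and 2 H2B genes that differed in level are shown, with those letters, or their reverse complement, in capitals. The H1f10 window held none of them, and the H1f5 window held 3 of the 4 motifs.
H1f5, chr13:21964796-21965045, minus strand: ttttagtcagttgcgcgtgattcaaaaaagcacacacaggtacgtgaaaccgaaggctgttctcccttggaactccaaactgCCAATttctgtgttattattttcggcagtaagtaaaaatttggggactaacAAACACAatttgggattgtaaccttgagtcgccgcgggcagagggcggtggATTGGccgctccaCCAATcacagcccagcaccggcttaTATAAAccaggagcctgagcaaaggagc
H1f10, chr6:87958620-87958869, minus strand: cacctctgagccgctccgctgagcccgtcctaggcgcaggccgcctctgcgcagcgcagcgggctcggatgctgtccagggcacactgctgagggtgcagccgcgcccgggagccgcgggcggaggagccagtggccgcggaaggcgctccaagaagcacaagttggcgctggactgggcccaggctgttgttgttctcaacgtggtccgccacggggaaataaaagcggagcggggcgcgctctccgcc
H2bc12, chr13:22219790-22220039, plus strand: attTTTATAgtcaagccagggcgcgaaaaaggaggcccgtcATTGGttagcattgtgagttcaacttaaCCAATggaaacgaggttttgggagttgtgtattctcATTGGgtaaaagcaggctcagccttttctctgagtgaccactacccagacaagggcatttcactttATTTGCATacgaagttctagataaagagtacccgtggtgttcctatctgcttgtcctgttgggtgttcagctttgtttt
H2bc21, chr3:96128185-96128434, plus strand: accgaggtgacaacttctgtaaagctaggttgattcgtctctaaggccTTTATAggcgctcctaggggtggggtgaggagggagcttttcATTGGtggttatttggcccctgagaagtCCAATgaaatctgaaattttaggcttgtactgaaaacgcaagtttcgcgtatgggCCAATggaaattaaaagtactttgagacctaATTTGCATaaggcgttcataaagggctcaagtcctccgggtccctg

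The libraries held 35387438 to 49799321 reads on genes, and the 46 members took 0.0266% and 0.0384% of them in control and 0.0320% and 0.0376% in tamoxifen. Values are counts that the authors divided by 1 factor per library, so that 1 read was worth 0.719 to 1.37 normalized counts. Mgp, counted over the whole gene, was at 1094 and 1352 in control and 945 and 909 in tamoxifen, a log2 fold change of -0.39 that did not pass the test (SE 0.18, limma adjusted p = 0.0986). Cell type markers moved strongly. All 10 endothelial markers were called lower, with summed levels of 988125 and 964318 in control and 168017 and 85911 in tamoxifen. All 10 neutrophil precursor markers were called higher, summing to 304 and 234 in control and 112202 and 83477 in tamoxifen. All 10 erythroblast and all 10 pluripotent cell markers were also called higher, as were 8 of 9 B-cell precursor, 8 of 8 astrocyte, 7 of 8 neural progenitor, 6 of 8 oligodendrocyte precursor and 5 of 8 microglia and macrophage markers. In 3 of these lists 1 marker was called lower, namely Ebf1 of B-cell precursors (log2 fold change -1.58), Nes of neural progenitors (-2.12) and Gpr17 of oligodendrocyte precursors (-3.28). With these included, the summed B-cell precursor markers were at 8187 and 8147 in control and 7893 and 6465 in tamoxifen, and the summed neural progenitor markers at 36646 and 34132 in control and 18803 and 25499 in tamoxifen. The B-cell precursor sum was higher in tamoxifen when libraries were rescaled to equal totals. Rag1 and Neurog2 were the markers with 0 reads in both controls. The part of these shifts in the histone values was not tested, and fewer cells of a type cannot be told apart from less RNA per cell.

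Most members were rare, and most lay higher in the tamoxifen libraries. In each control library 14 members had 0 reads, and in neither tamoxifen library did any. Reads appeared after tamoxifen for 10 of the 46 members (21.7%) that had 0 reads in both controls, beside 5.54% of all listed genes. The tamoxifen libraries lay above both controls for 29 members (63.0%, beside 44.0% of all listed genes), below both for 8 (17.4%, beside 34.6%), and overlapped them for 9. The groups hold 2 libraries each, for which an exact two-sided permutation test cannot go below p = 0.33.

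A mean of 10 normalized counts was reached by 26 members, which were tested with limma on log2(normalized count + 1), with Benjamini-Hochberg adjustment over 20485 genes. Calls required that the adjusted p be under 0.05 and the fold exceed 1 on the log2 scale in either direction. Of these, 9 members were called higher (34.6%, beside 28.6% of all genes tested) and 2 lower (7.69%, beside 16.0%), and 15 were not called. Their median log2 fold change was 0.87, beside 0.05 for all genes tested. Because a rare gene passes the filter through the group in which it is high, these figures describe the members tested only. Of those called, H1f1, H1f5, H2ac6 and H2bc12 had control means of 8.94, 2.05, 9.68 and 0, and H4c8 a tamoxifen mean of 4.86. Each passed the filter only through its higher group, so its call lends no further support. When no filter was set, 21 of the 46 were called higher (45.7%, beside 27.5% of all genes) and 1 lower (2.17%, beside 12.7%). H4c3, with a mean of 10.2, was the last member inside the filter, and H3c6, with a mean of 9.41, the first outside it. Among the 20 members not tested, the tamoxifen libraries were above both controls for 16, below for 1 and overlapping for 3. Over all listed genes, 44.0% were above and 34.6% below.

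The calls depended on the scaling and on the tamoxifen libraries. Rescaling to equal totals moved the median log2 fold change of all genes by 0.47 and gave 10 members higher and none lower, with 7206 and 1838 of all genes. Quantile normalization moved the median by -0.25 and gave 5 members higher and 5 lower, with 4738 and 5275 of all genes. H1f3, H1f4, H2ac6 and H4c4 lost their call under quantile normalization, where the log2 fold changes of H1f3 and H4c4 were 1.37 and 1.25, and H2bc4, H2bc21 and H4c9 were called lower. At equal totals the calls of H2ac25 and H4c8 were lost and H3c4 was called higher. Without tamoxifen library 1, or without tamoxifen library 2, 2 members stayed called, H1f10 and H2bc12, and the calls over all genes fell to 3030 or 2553 higher and 1994 or 1594 lower. Without control library 1 the calls of H1f4, H2ac6 and H2ac25 were lost and H1f2 was called lower (log2 fold change -1.14). Without control library 2 the call of H4c8 was lost, and H2ac8 and H2bc3 were called higher. The log2 fold change of H2ac8 was -0.60 without control library 1 and 1.98 without control library 2.

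**Figure D1:**
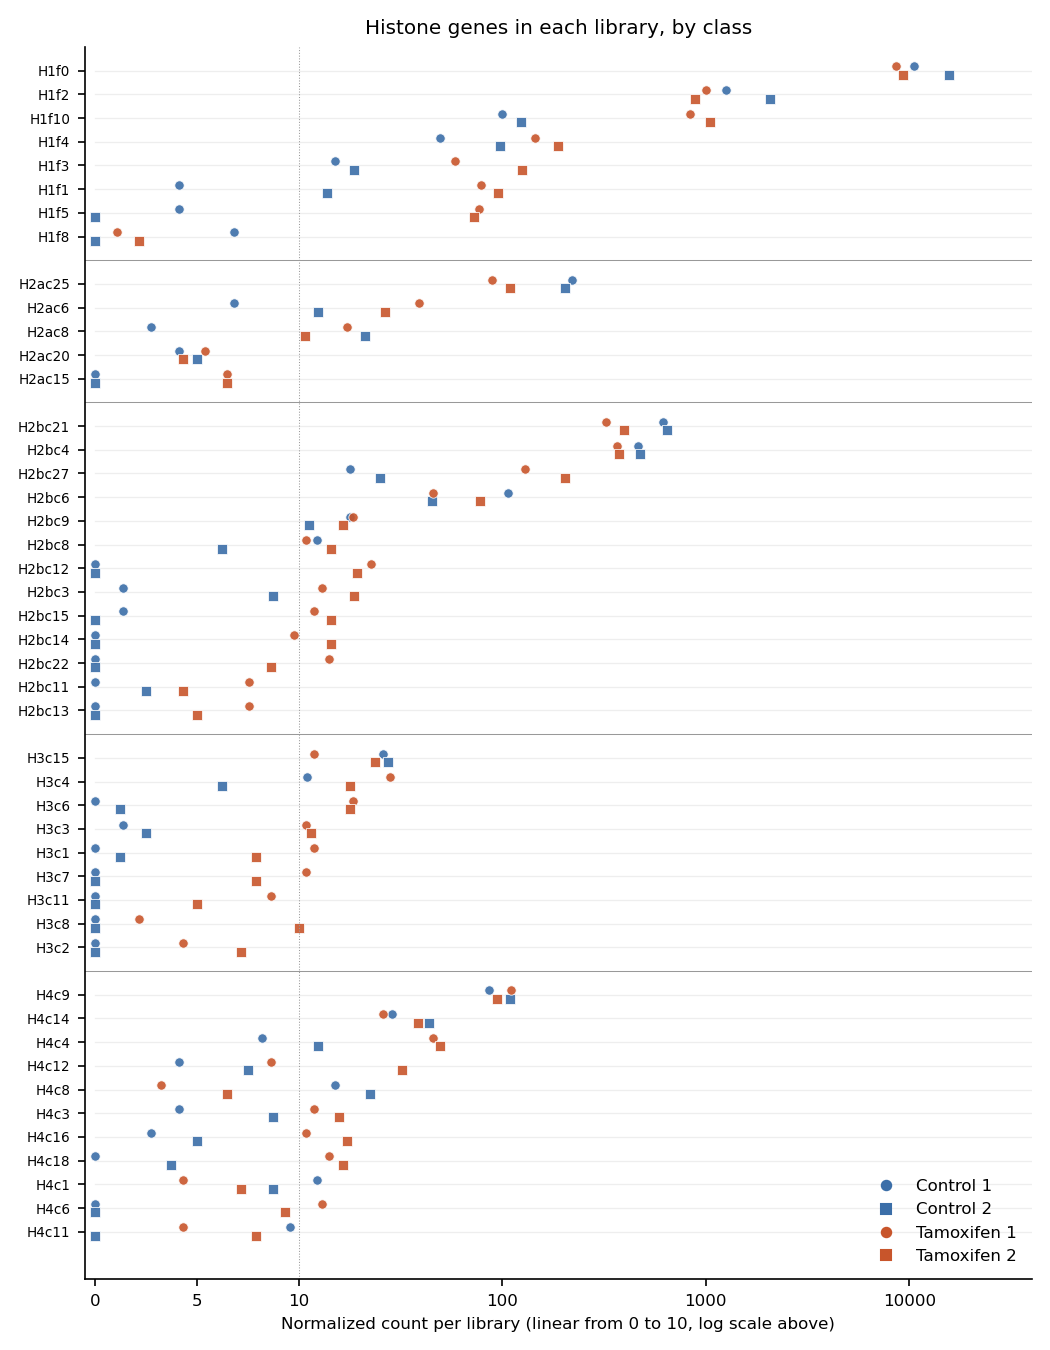
Normalized count of each histone gene (rows, grouped by class) in the 2 control libraries (blue) and the 2 tamoxifen libraries (orange), on an axis that is linear from 0 to 10 and logarithmic above. Only 7 of the 46 genes had a mean of at least 100, and 10 genes sit at 0 in both controls and above 0 in both tamoxifen libraries.

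Linker histone genes held the most abundant member, and 5 of the 7 tested were called higher (71.4%, beside 28.6% of all genes tested). That share counts H1f1 and H1f5, which passed the filter only through the tamoxifen libraries, so it describes the members tested only. With no filter, 4 of the 8 listed were called higher, beside 27.5% of all genes, and H1f4 was not called. H1f0, the H1 of differentiated and non-dividing cells, was at 10558 and 15656 normalized counts in control and 8572 and 9318 in tamoxifen. Both tamoxifen libraries were below both controls, but the log2 fold change of -0.52 did not pass the test (SE 0.22, adjusted p = 0.0732) and was 0.07 under quantile normalization. H1f2, a replication-dependent H1, was at 1255 and 2071 in control and 1001 and 882 in tamoxifen. Its groups did not overlap, and its log2 fold change of -0.78 (SE 0.25, adjusted p = 0.0280) was inside the limit of 1.

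H1f10, a distant member of the family with a polyadenylated mRNA, had the smallest adjusted p of the members tested. It was at 99.99 and 124 in control and 839 and 1047 in tamoxifen. The log2 fold change was 3.06 (SE 0.27, adjusted p = 8.4e-05), and H1f10 stayed called under all 16 alternatives. H1f5 was at 4.11 and 0 in control, from 3 reads in all, and 76.9 and 72.6 in tamoxifen, from 172 reads. The ratio was 37.9, with an exact interval of 12.7 to 186 for counting error only, and the gene was called higher (log2 fold change 5.07, SE 0.84, adjusted p = 0.00139). H1f1 was at 4.11 and 13.8 in control and 79.1 and 95.6 in tamoxifen. It was called higher with a log2 fold change of 3.34 (SE 0.66, adjusted p = 0.00352). Both H1f5 and H1f1 passed the filter only through the tamoxifen libraries in which they were high, so neither call lends further support.

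H1f3 was at 15.1 and 18.8 in control and 58.5 and 125 in tamoxifen, and was called higher (log2 fold change 2.28, SE 0.58, adjusted p = 0.0107). H1f4 was at 49.3 and 97.6 in control and 145 and 188 in tamoxifen, a log2 fold change of 1.24 (SE 0.46, adjusted p = 0.0488) that lost its call under 8 of 16 alternatives. The replication-dependent H1 genes called higher were thus the 4 rarer ones, and not H1f2. H1f4 shares bases on its strand with H2bc6, so reads could have been split between them. H1f8, the oocyte linker histone, was not tested, with 6.85 and 0 in control and 1.08 and 2.16 in tamoxifen, from 5 and 4 reads.

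The 5 listed H2A genes were led by H2ac25, which lies at chr11:58845511-58847656 with a small group of histone genes outside the main cluster. It was at 219 and 204 in control and 88.9 and 109 in tamoxifen. Both tamoxifen libraries were well below both controls, and the gene was called lower with a log2 fold change of -1.09 (SE 0.35, adjusted p = 0.0269). That call was lost under 4 alternatives, and the log2 fold change was -0.63 when libraries were rescaled to equal totals. H2ac25 overlaps Trim17 on the same strand, and 70.7% of its 50-base windows occur in transcripts of other genes.

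H2ac6 was at 6.85 and 12.5 in control and 39.0 and 26.6 in tamoxifen, and was called higher (log2 fold change 1.69, SE 0.61, adjusted p = 0.0444). The call was lost under 8 of 15 alternatives. H2ac8 was at 2.74 and 21.3 in control and 17.3 and 10.8 in tamoxifen, so that the groups overlapped and no change was called (adjusted p = 0.531). H2ac15 had 0 reads in both controls and 15 reads, at 6.503 and 6.470, in tamoxifen, at least 3.30-fold higher. This bound sets the control at 3 reads over both libraries together and takes the tamoxifen reads as counted. The other bounds given here do the same. H2ac20 stayed between 4.11 and 5.42 in all 4 libraries.

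Of the 13 H2B genes, 2 rarer ones were called higher and the 2 most abundant were not called. H2bc21, whose mRNA is polyadenylated and which is expressed in non-dividing cells, was at 614 and 646 in control and 324 and 397 in tamoxifen. The groups did not overlap, and the log2 fold change of -0.81 (SE 0.22, adjusted p = 0.0157) did not reach the limit of 1. It was -1.50 under quantile normalization, where H2bc21 was called lower, and -0.34 at equal totals. H2bc4 was at 464 and 473 in control and 366 and 374 in tamoxifen, a log2 fold change of -0.34 that did not pass (SE 0.22, adjusted p = 0.218) and was 0.13 when libraries were rescaled to equal totals. Under quantile normalization it was -1.12, and H2bc4 was called lower.

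H2bc27, at chr11:58838848-58840361, was at 17.8 and 25.03 in control and 130 and 203 in tamoxifen. It was called higher with a log2 fold change of 2.88 (SE 0.50, adjusted p = 0.00170). H2bc12 had 0 reads in both controls and 48 reads, at 22.8 and 19.4, in tamoxifen, at least 10.6-fold higher. It was called higher (limma adjusted p = 0.000539), but with a mean of 10.5 it passed the filter only through the tamoxifen libraries in which it was high, so the call lends no further support. H2bc6 was at 107 and 45.1 in control and 45.5 and 77.6 in tamoxifen, overlapping. H2bc8 and H2bc9 also overlapped, between 6.26 and 18.4 in the 4 libraries, and neither was called (adjusted p = 0.557 and 0.700).

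H2bc3 was at 1.37 and 8.76 in control and 13.01 and 18.7 in tamoxifen, and did not pass the test (log2 fold change 1.79, adjusted p = 0.0887). H2bc13, H2bc14 and H2bc22 had 0 reads in both controls and 14, 29 and 25 reads in tamoxifen, at least 3.08-fold, 6.39-fold and 5.51-fold higher. H2bc15 went from 1 read to 31, a ratio of 20.5 with a counting interval of 3.41 to 835. H2bc11 went from 2 reads to 13, a ratio of 4.30 with an interval of 0.973 to 39.2.

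**Figure D2:**
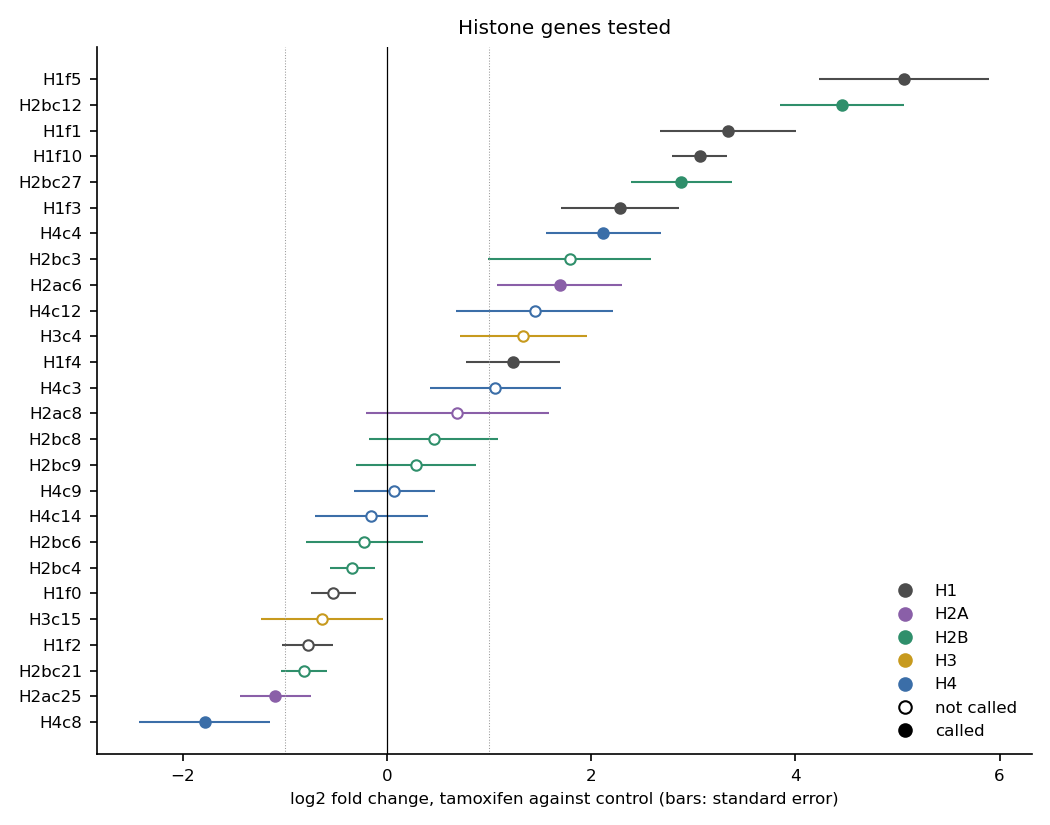
log2 fold change of tamoxifen against control with its standard error for the 26 histone genes tested, coloured by class, with filled points for genes called and dotted lines at -1 and 1. H1f5, H2bc12, H1f1 and H1f10 are the highest, with H2bc12 at 0 reads in both controls, and H2ac25 and H4c8 are the genes called lower.

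H3 genes were the rarest class, and 7 of the 9 were not tested. H3c15 was the highest, at 26.0 and 27.5 in control and 11.9 and 23.7 in tamoxifen. Its groups did not overlap, but it was not called (log2 fold change -0.64, SE 0.60, adjusted p = 0.386). H3c4 was at 10.96 and 6.26 in control and 28.2 and 17.97 in tamoxifen, and did not pass (log2 fold change 1.34, SE 0.62, adjusted p = 0.0991).

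The 7 H3 genes outside the filter were all above both controls in both tamoxifen libraries, beside 44.0% of all listed genes. H3c6 was at 0 and 1.25 in control, from 1 read, and 18.4 and 17.97 in tamoxifen, from 42 reads, a ratio of 27.8 with a counting interval of 4.72 to 1122. H3c2, H3c7, H3c8 and H3c11 had 0 reads in both controls and 14, 21, 16 and 15 in tamoxifen, at least 3.08-fold, 4.63-fold, 3.52-fold and 3.30-fold higher. H3c1 went from 1 read to 22 and H3c3 from 3 to 26. All 9 listed H3 genes have a coding length of 408 bases, and 87.6% of the windows of H3c11 occur in transcripts of other genes.

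H4 genes were divided. H4c9, the highest, was at 86.3 and 109 in control and 111 and 94.2 in tamoxifen. The groups overlapped and the log2 fold change was 0.07 (SE 0.40, adjusted p = 0.886), whereas under quantile normalization it was -1.13 and H4c9 was called lower. H4c14 was at 28.8 and 43.8 in control and 26.0 and 38.8 in tamoxifen and also overlapped (adjusted p = 0.824). H4c4 was at 8.22 and 12.5 in control and 45.5 and 49.6 in tamoxifen, and was called higher (log2 fold change 2.12, SE 0.56, adjusted p = 0.0134).

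H4c8 was the other member called lower. It was at 15.1 and 22.5 in control and 3.25 and 6.47 in tamoxifen, from 29 and 12 reads. The log2 fold change was -1.79 (SE 0.64, adjusted p = 0.0427), and the call was lost under 7 of 15 alternatives, edgeR and DESeq2 on recovered reads among them. H4c3 and H4c12 lay above both controls without passing the test (adjusted p = 0.188 and 0.139). H4c6 had 0 reads in both controls and 25 in tamoxifen, at least 5.51-fold higher, and H4c18 went from 3 reads to 36, a ratio of 7.93 with a counting interval of 2.51 to 40.3. H4c16 lay above its controls, from 6 and 34 reads, H4c1 lay below them, from 16 and 14 reads, and H4c11 overlapped. All 11 share a coding length of 309 bases.

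Summed over a class, H3 and H4 were higher in tamoxifen and H1, H2A and H2B lower. H3 summed to 38.4 and 38.8 in control and 107 and 109 in tamoxifen, 2.81-fold higher, and without H3c15 to 12.3 and 11.3 in control and 95.4 and 85.5 in tamoxifen. The log2 ratio of the H3 sum was 1.49, but 0.25 under quantile normalization and 1.96 at equal totals. H4 summed to 171 and 222 in control and 253 and 295 in tamoxifen, 1.40-fold higher, a direction that flipped under quantile normalization. Without H4c9 it summed to 84.9 and 113 in control and 142 and 201 in tamoxifen, which also flipped under quantile normalization. H2A summed to 233 and 243 in control and 157 in each tamoxifen library, 1.51-fold lower. The groups did not overlap in these 3 classes, as the plot of summed levels shows. H2B summed to 1236 and 1218 in control and 982 and 1167 in tamoxifen, and H1 to 11992 and 17982 in control and 10773 and 11730 in tamoxifen. Both were lower by 1.14-fold and 1.33-fold without overlap. Both directions flipped when libraries were rescaled to equal totals, H1 also under quantile normalization. Without H1f0, the H1 sum was 1434 and 2325 in control and 2201 and 2413 in tamoxifen, 1.23-fold higher with overlapping groups. H2ac25 made up 89.1% of the H2A sum in control and 63.0% in tamoxifen, and H2bc21 51.3% and 33.5% of the H2B sum. The H2A and H2B sums without these genes were not taken. All 46 members together summed to 13670 and 19703 in control and 12272 and 13459 in tamoxifen, 1.30-fold lower, which flipped at equal totals. The 38 core histone members summed to 1678 and 1721 in control and 1499 and 1729 in tamoxifen, with overlapping groups. Each of the 5 class sums gave an exact two-sided permutation p of 0.33, the smallest that 2 against 2 libraries allow.

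In every class the gene leading in control held a smaller share after tamoxifen. These genes were picked by the same shares, which favours a fall from control, so the pattern is a description only. Per kilobase of exon, H1f0 made up 84.1% of the H1 level in control and 71.9% in tamoxifen, and H1f10 went from 1.24% to 12.8%. H2ac25 made up 77.7% of the H2A level in control and 44.1% in tamoxifen. H2bc21 went from 51.7% to 20.2% of the H2B level, while H2bc27 went from 6.19% to 32.5%. H3c15 made up 73.3% of the H3 level in control and 13.03% in tamoxifen, where H3c6 held 16.4%. By these mean shares per kilobase, H2bc21 and H3c15 no longer led their classes in tamoxifen. In tamoxifen library 2, however, H3c15 still led (17.0%, beside 15.7% for H3c6). H4c9 went from 51.9% to 37.8% of the H4 level. These shares are means of 2 libraries, and for each of the 5 leading genes both tamoxifen libraries were below both controls. Not divided by length, H2bc4 (34.7%) led H2B and H3c4 (21.4%) led H3 in tamoxifen by the mean share. H2bc27 then held 15.3% and H3c6 16.8%. On that scale H2bc21 (34.0%) and H3c15 (21.7%) still led in tamoxifen library 2.

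**Figure D3:**
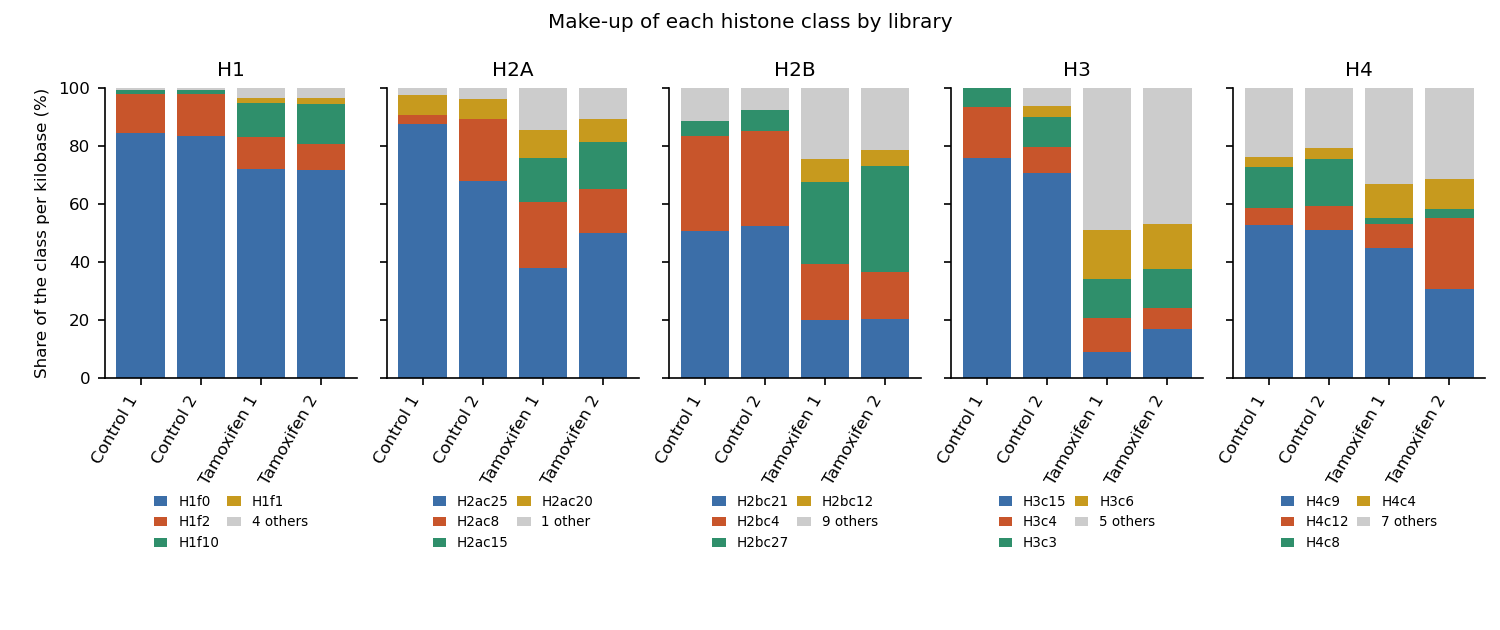
Share of each class taken by its members per kilobase of exon in each of the 4 libraries, with the 4 leading genes coloured and the others in grey. The blue segment (H1f0, H2ac25, H2bc21, H3c15 and H4c9), picked by these same shares, is shorter in both tamoxifen libraries than in either control.

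Members were also grouped by the annotated 3-prime end. Members were divided into 4 without a stem-loop, 24 with one and an annotated gene end more than 100 bases past it, and 18 that end within 100 bases of it or before it. This division was made with the values known, so it carries no test. The 18 genes that end at the stem-loop summed to 34.2 and 58.8 normalized counts in control and 305 and 343 in tamoxifen, 6.96-fold higher, from 25 and 47 reads in control and 281 and 477 in tamoxifen. No read was found for 8 of them in either control, beside 5.54% of all listed genes. In both tamoxifen libraries 16 lay above both controls, beside 44.0% of all listed genes, with H4c8 below and H2ac20 overlapping. H1f5 and H1f1 made up the largest part after tamoxifen. With the limit at 200 bases, 22 genes fell in this group and their sum was 5.24-fold higher. For the 18 genes, the log2 ratio of the sum was 2.80, but 1.40 under quantile normalization and 3.27 at equal totals.

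The 24 genes with a longer annotated end summed to 2357 and 3218 in control and 2232 and 2352 in tamoxifen. Of these, 12 lay above both controls (beside 44.0% of all listed genes), 5 below (beside 34.6%) and 7 overlapped. H2bc22 and H3c7 had 0 reads in both controls. The 4 genes without a stem-loop summed to 11278 and 16426 in control and 9736 and 10764 in tamoxifen. Both sums were lower in tamoxifen, and both were higher when libraries were rescaled to equal totals. The median level of a single gene in control was 0.655 for the 18 that end at the stem-loop, 11.3 for the 24 with a longer end and 371 for the 4 without a stem-loop. These values are not divided by length.

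**Figure D4:**
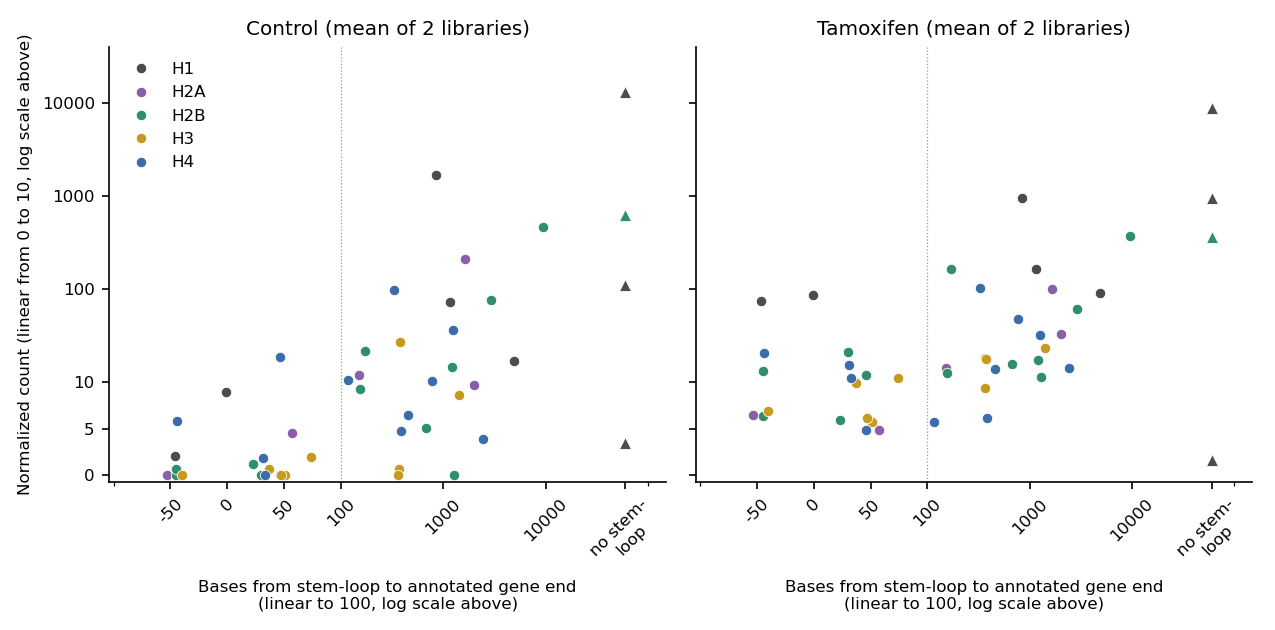
Mean normalized count of each histone gene in control and in tamoxifen against the number of bases on the genome from the stem-loop to the annotated gene end, with the genes without a stem-loop as triangles at the right. Left of the dotted line at 100 bases, the 18 genes are at most at 18.8 in control and reach 87.4 in tamoxifen.

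Related genes give the setting of these changes. All 24 S-phase and DNA replication genes were called higher, beside 28.6% of all genes tested, and their sum was 13908 and 15423 in control and 123033 and 103613 in tamoxifen. Mcm6, a subunit of the replicative helicase, was at 3163 and 3243 in control and 11339 and 9633 in tamoxifen (log2 fold change 1.71, SE 0.16, adjusted p = 0.000106). Rrm1, the large subunit of ribonucleotide reductase, was at 1949 and 2185 in control and 10311 and 8996 in tamoxifen (log2 fold change 2.22, SE 0.16, adjusted p = 3.9e-05).

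Of 18 genes for histone mRNA transcription and 3-prime end processing, 3 were called higher (16.7%, beside 28.6% of all genes tested) and none lower (beside 16.0%), and their median log2 fold change was 0.05. Those 3, named after their values were seen, were Slbp, which encodes the protein that binds the stem-loop, Zfp473, a zinc finger protein of the processing machinery, and Eri1, an exonuclease that trims the stem-loop. Slbp was at 959 and 988 in control and 3661 and 3052 in tamoxifen (log2 fold change 1.78, SE 0.16, adjusted p = 9.9e-05). Srrt and Ybx3, the most abundant of the list, did not pass the test (adjusted p = 0.216 and 0.876), with log2 fold changes of -0.25 and -0.04.

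Of 24 histone chaperone and import genes, 11 were called higher (45.8%, beside 28.6% of all genes tested) and 1 lower (4.17%, beside 16.0%). Rbbp4, a histone-binding subunit of several chromatin complexes, was at 9105 and 8845 in control and 13992 and 12781 in tamoxifen, within the fold limit (log2 fold change 0.58, adjusted p = 0.0193). Atrx, a remodeller that deposits H3.3, was at 17798 and 12729 in control and 9907 and 10232 in tamoxifen (log2 fold change -0.58, adjusted p = 0.0436). Ubn1, a subunit of the HIRA complex that also deposits H3.3, was the gene called lower, at 9307 and 9145 in control and 4387 and 4073 in tamoxifen (log2 fold change -1.13, SE 0.15, adjusted p = 0.000514).

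Replacement and other variant histone genes are mostly polyadenylated, and 10 of 16 listed for comparison were in the table, 9 of them tested. Of these, 4 were called higher (44.4%, beside 28.6% of all genes tested) and 1 lower (11.1%, beside 16.0%). H3f3b, which encodes H3.3, was at 14360 and 16388 in control and 17242 and 16279 in tamoxifen, with overlapping groups (log2 fold change 0.13, adjusted p = 0.578). Macroh2a1, which encodes a macroH2A, was at 3312 and 3889 in control and 5305 and 4809 in tamoxifen, within the fold limit (log2 fold change 0.49, adjusted p = 0.0303). H2aj, an H2A variant gene, was called lower, at 764 and 920 in control and 388 and 405 in tamoxifen (log2 fold change -1.08, SE 0.21, adjusted p = 0.00306). The 4 called higher, H2ax, H2az1, Macroh2a2 and Cenpa, were named after their values were seen. H2ax, which has a stem-loop in its annotated 3-prime end, was at 648 and 787 in control and 5086 and 4182 in tamoxifen (log2 fold change 2.69, SE 0.18, adjusted p = 3.0e-05).

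**Figure D5:**
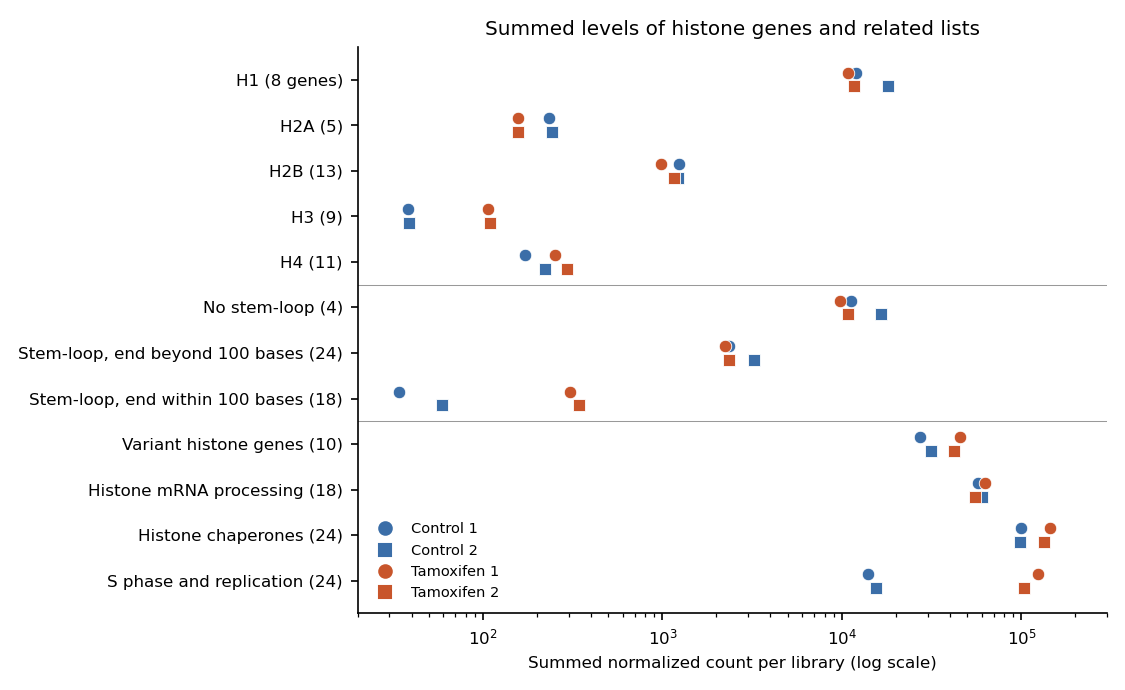
Summed normalized count per library (log axis) of the 5 histone classes, of the members grouped by stem-loop and annotated end, and of 4 lists of related genes, with control in blue and tamoxifen in orange. The 18 genes ending at the stem-loop, a group formed with the values known, and the S-phase and replication genes show the widest gaps.

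Reads of near-identical histone genes may have been assigned to the wrong copy or discarded. In the annotation, 13 of the 46 members had over 50% of their 50-base windows in transcripts of another gene, with a median of 36.2%, and 6 members had none. Of the genes called, H1f1, H1f5 and H1f10 shared no window, and H2bc27 shared 18.1%, H2bc12 74.2% and H4c8 45.8%. Another annotated gene overlaps 17 members, on the same strand for 7. The strand setting of the counting is not given in the sources used here, so reads of opposite genes such as H2bc4 and H2ac6 cannot be told apart with certainty.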

How the data were processed

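RNA-Seq libraries of cerebral cells from 2 control and 2 tamoxifen pools were prepared with the KAPA Stranded mRNA-Seq kit. Per the submitters' processing notes and the methods, the authors aligned reads to GRCm39 with STAR 2.7.10a, left out low-count genes, and used DESeq2 1.36.0 to normalize. The annotation release, strand setting and low-count limit are not given in the sources used here. The values deposited are a signal for each gene, that is, read counts that the authors divided by 1 factor per library. Dividing each column by its smallest step gave whole reads, within 0.01 of a read, for 100% of values, and reads on genes numbered 35387438 to 49799321 per library. A group at 0 reads was bounded at 3 reads, with the other group taken at its counted reads. Intervals cover counting error only, and these bounds leave out the counting error of the other group.

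Genes were tested with limma 3.58.1 (R 4.3.3; lmFit, eBayes with trend) on log2(normalized count + 1), restricted to genes whose mean was 10 or more, with Benjamini-Hochberg adjustment. Fold changes on this scale understate those of low genes. Genes were called where the adjusted p was under 0.05 and the fold exceeded 1 on the log2 scale, the cut-offs in the study's methods. The test was run on counts simulated with the gene means and depths of these libraries, to see if the code recovered known changes. Every simulated gene had the same dispersion, so that check does not measure how the test performs at the spread seen here. Alternatives were DESeq2 1.42.0 and edgeR 4.0.16 on the recovered reads, a pseudocount of 0.5 or 5, no filter or a mean of 100, quantile normalization or equal totals, a fit with no trend or with the replicate number as block, calls by adjusted p alone, and fits that left out 1 library at a time. A filter at a mean of 10 reads in either group and an annotated-end limit of 200 bases were added after seeing the data. So were the H1, H3 and H4 sums without H1f0, H3c15 and H4c9. The members and lists were chosen with earlier results of these data known.

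Genes named were all H1 members, the 3 most abundant of each other class, members called lower, members tested whose groups overlap, the 3 largest and 3 smallest changes, the members at the filter's edge and, per list of related genes, the 2 most abundant and those called against the list's direction. Other members are named by their reads, after their values were seen. Gene locations, exon lengths, stem-loops and promoters came from GRCm39 with GENCODE M39, in which all 46 members were found. Proteins were not analysed here.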

Additional observations from a re-analysis of the deposited data

How the results depend on the processing

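The 26 members tested gave 9 calls higher and 2 lower. Members called higher numbered 21 with no filter, 2 at a mean of 100, 5 under quantile normalization and 17 with a filter at a mean of 10 reads in either group, and 2 to 11 with 1 library left out. Members called lower numbered 1 with no filter, at a mean of 100, with edgeR and with DESeq2, 0 at equal totals, 5 under quantile normalization, 4 by the adjusted p alone, and 0 to 2 with 1 library left out. Over all genes, 3540 were called higher at a mean of 100, and 1838, 5275 and 5228 were called lower at equal totals, under quantile normalization and by the adjusted p alone. With 1 library left out, 2553 to 6163 were called higher and 1594 to 3537 lower. Related genes called lower numbered 0 at equal totals, 5 by the adjusted p alone and 1 to 2 with 1 library left out.

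At equal totals the log2 ratio of summed levels was 0.060 for H1, 0.28 for H2B, 0.039 for members without a stem-loop and 0.19 for those with a longer annotated end. Under quantile normalization it was 0.036 for H1, -0.64 for H4 and 0.066 for members without a stem-loop. At a mean of 100, 7 members were left, with a median log2 fold change of -0.52. H4c9 was at -1.13 under quantile normalization. Not divided by length, H1f0 made up 87.6% of H1 in control and 79.5% in tamoxifen, H2ac25 63.0% of H2A and H2bc21 33.5% of H2B in tamoxifen, and H3c15 69.4% of H3 and H4c9 49.8% of H4 in control. The causes were not tested.

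Replicate numbers did not pair the samples: deviations of same-numbered libraries correlated at 0.0251 over 20485 genes. With a replicate block, 9 members were called higher and 2 lower, the same genes, beside 6064 and 3461 of all genes. Depth limits the rare members, for which 1 read was worth 0.719 to 1.37 normalized counts. With 1 library left out, the lone sample of its group is assumed to vary like the other group.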

Other observations

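Among pairs of neighbouring listed members, 2 stood out after the values had been seen. Annotated histone genes that are not listed lie within each pair, H2bc26 between H2bc27 and H2ac25, and H2ac10 between H4c8 and H3c8. H2bc27 and H2ac25 lie 5149 bases apart on chromosome 11, and H2bc27 was called higher whereas H2ac25 was called lower. H3c8 and H4c8 lie 3902 bases apart on chromosome 13, where H3c8 had 0 reads in both controls and 16 reads in tamoxifen, and H4c8 had 29 reads in control and 12 in tamoxifen. Whether such pairs differ more often than other neighbouring genes was not tested.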
